A study of Mus musculus with 2 samples.

Results

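The olfactory receptor genes described here are the 78 genes, of 1135 rows of the feature list named Olfr and a number, that reached 2 or more unique molecular identifiers (UMIs, each a count of 1 captured RNA molecule) in at least 1 cell barcode. Only barcodes with at least 200 detected genes were used, with no limit on mitochondrial UMIs. A further 280 receptor rows had a highest count of 1 UMI in such barcodes and stayed outside, 22 of the members sat at the limit with a highest count of 2, and 48 reached 10 or more. Of all 1135 rows, 774 had no UMI in any barcode. The members were chosen by these receptor UMIs themselves, so their levels are a description and carry no test.

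Odorant receptors form the largest family of G protein-coupled receptors in the mouse genome, and a mature olfactory sensory neuron is known to transcribe a single one of them, from a single allele. Mature neurons make the olfactory marker protein Omp and the G protein gamma subunit Gng13, which belongs to the odorant signal cascade. Immature neurons still growing their axons are known for the growth cone protein Gap43 and for Gng8, the gamma subunit that precedes Gng13.

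The study profiled single cells of the cribriform plate, the bone that the axons of these neurons cross, taken with the olfactory bulbs and some nasal mucosa. Both groups were wild-type C57BL/6J females aged 10 weeks, either healthy or with EAE (experimental autoimmune encephalomyelitis, in which immune cells are primed against myelin), and each was 1 pool of 5 mice. Tissue was broken up mechanically, stained for Podoplanin, CD31, CD45 and a viability dye and sorted, with lymphatic endothelial cells as the labelled target. Barcodes carry the suffix 1 or 2, called library 1 and library 2 here, and nothing in the sources used here ties either to healthy or EAE mice, so no comparison of the 2 groups was made and no p-value is given. The libraries held 3670 and 2326 barcodes with at least 200 genes and a median of 7192 and 8978.5 UMIs each. All 6 markers of lymphatic endothelium were at 0 UMIs in the receptor-bearing neurons described next. The same barcode sequence stood under both suffixes 8 times, 2 of them in barcodes with a receptor and 0 in neurons with one.

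A receptor was counted in a barcode when it had at least 2 UMIs there, which gave 129 receptor barcodes. Classes were set by genes other than receptors and the 4 neuron genes above. Of these 129 barcodes, 50 were sensory-neuron-like, with UMIs of at least 3 of 10 neuron markers such as Gnal, Adcy3 and Cnga2. Another 64 were microglia-like (at least 5 of 7 microglia markers), 5 were like olfactory ensheathing glia (at least 3 of 7 markers), the cells that wrap the axons of these neurons, and 10 fell in no class, called unassigned below. Of the 50 neurons, 7 were in library 1 and 43 in library 2. Of the 78 members, 56 reached 2 UMIs in a neuron and 53 did so in no other class. The remaining 22 reached 2 UMIs only outside the neurons.

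The receptors with the highest counts differ widely in sequence but share short stretches of the family. The following 45 bases of coding sequence, 5′ to 3′, from the GENCODE M21 transcripts, show this for 8 of the 12 leading receptors, for the receptors that shared a neuron, and for Olfr920, the member seen in most barcodes. Capitals mark the 9 bases that encode aspartate, arginine and a following residue, most often tyrosine, at the conserved motif of the family. It was found in 68 of the 78 members. The search did not match in Olfr295, Olfr107, Olfr728 and Olfr215 of the leading 12, which are not printed.
Olfr981: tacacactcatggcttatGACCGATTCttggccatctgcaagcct
Olfr867: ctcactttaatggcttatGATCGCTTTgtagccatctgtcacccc
Olfr1222: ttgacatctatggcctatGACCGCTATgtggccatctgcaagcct
Olfr131: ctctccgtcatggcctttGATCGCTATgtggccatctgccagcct
Olfr533: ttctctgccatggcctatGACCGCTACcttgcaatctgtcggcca
Olfr1196: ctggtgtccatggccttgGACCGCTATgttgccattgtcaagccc
Olfr788: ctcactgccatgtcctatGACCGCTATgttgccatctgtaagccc
Olfr826: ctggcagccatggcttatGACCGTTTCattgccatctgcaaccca
Olfr1018: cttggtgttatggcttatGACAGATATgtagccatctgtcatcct
Olfr983: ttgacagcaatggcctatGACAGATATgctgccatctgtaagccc
Olfr339: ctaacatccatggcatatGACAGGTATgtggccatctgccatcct
Olfr1012: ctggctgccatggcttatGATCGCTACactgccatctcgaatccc
Olfr920: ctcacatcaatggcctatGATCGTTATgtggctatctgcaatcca

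Over the 3003 pairs of members the coding sequences were 50.5% to 98.1% identical, with a median of 56.8%, and coding lengths ran from 912 to 993 bases. Only 2 pairs were at least 90% identical, Olfr263 with Olfr1369-ps1 at 98.1% and Olfr295 with Olfr297 at 90.2%. Their 45-base stretches, for the first pair, were the same letters.
Olfr263: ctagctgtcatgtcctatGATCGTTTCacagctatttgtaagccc
Olfr1369-ps1: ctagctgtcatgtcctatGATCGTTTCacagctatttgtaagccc
Several members also have a near copy outside the list, such as Olfr1196 with Olfr1197 (97.0%), Olfr826 with Olfr825 (94.8%), Olfr533 with Olfr530 (91.8%), Olfr295 with Olfr292 (91.6%) and Olfr107 with Olfr97 (90.5%). Counts of such genes are uncertain to the extent that reads were shared between copies. Olfr867, Olfr788, Olfr981, Olfr131, Olfr728 and Olfr215 had no receptor at 90% or above in the annotation. The 78 members lay in 27 of the 63 receptor clusters found by joining receptor genes with gaps of at most 1000000 bases.

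Among the 50 neurons, 43 held exactly 1 receptor at 2 or more UMIs (86.0%, exact 95% binomial interval 73.3% to 94.2%). Intervals here and below cover counting error only. The top receptor supplied a median of 99.5% of the receptor UMIs of its barcode, and at least 90% in 42 of 50 (84.0%, 70.9% to 92.8%). In 24 neurons every receptor UMI came from a single gene. The next receptor had 1 UMI in 19 neurons, 2 to 4 in 4 and 5 or more in 3. In 15.9% of microglia-like barcodes at least 1 receptor UMI other than Olfr920 was found at a median depth of 8015 UMIs, against 10773.5 in the neurons. Receptor UMIs thus also occurred in cells of another type. The share of neurons with a second receptor at 1 UMI was higher, at 38.0% (24.7% to 52.8%). Olfr365 was the second receptor in 9 neurons. Whether such second UMIs were stray was not tested. The microglia-like share includes members seen in microglia-like barcodes and in no neuron, such as Olfr1444 in 26. Whether microglia make receptor RNA was not tested, so that share is not a measure of stray UMIs alone.

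**Figure D1:**
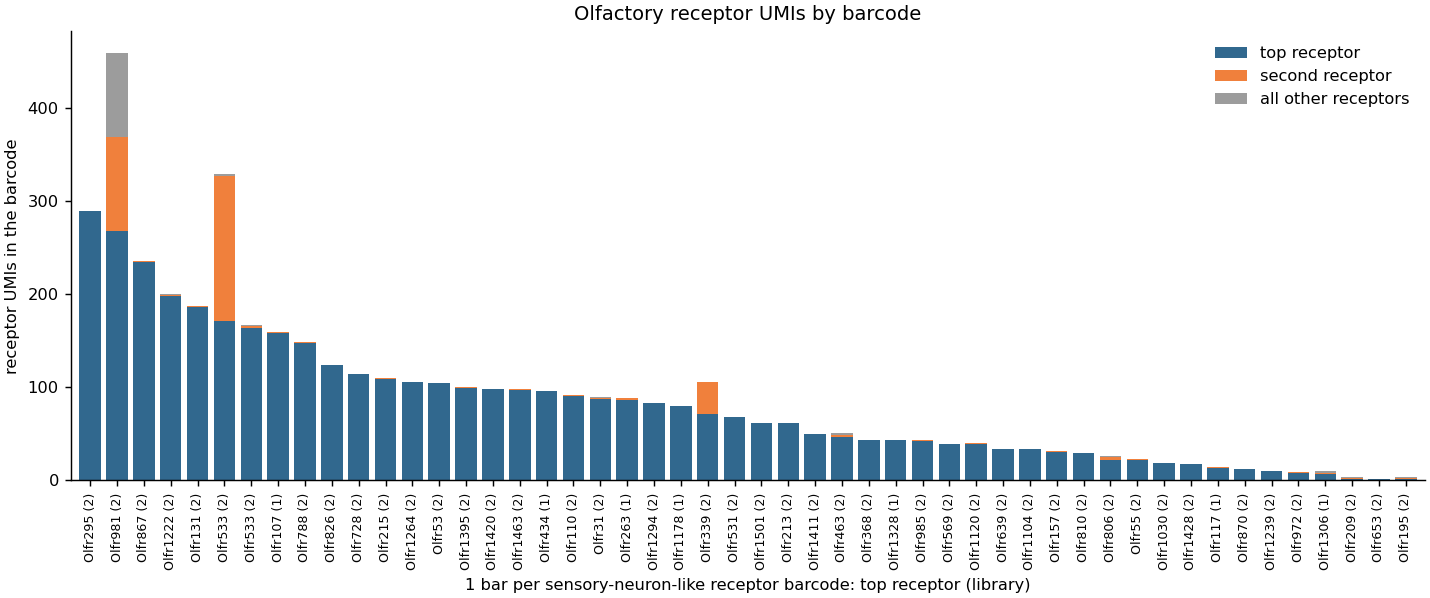
Receptor UMIs (y axis, linear) in each of the 50 sensory-neuron-like receptor barcodes, 1 bar each, named by the top receptor with its library in brackets; blue is the top receptor, orange the next one and grey all others. The top receptor runs from 290 UMIs down to 2, and 3 bars have a large orange part.

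Top receptor counts ran from 2 to 290 UMIs with a median of 65. They were 50 or more in 28 neurons, 10 to 49 in 17 and 2 to 9 in 5. Olfr295 led with 290 UMIs, 2.02% of everything captured in its barcode, and no other receptor UMI was present there. Olfr867 had 235 UMIs (2.03%) beside 1 UMI of Olfr365, Olfr1222 had 198 (1.03%) beside 2 lone UMIs, and Olfr131 had 187 (1.76%) beside 1. Each of these receptors thus filled between 1.03% and 2.03% of a neuron's captured RNA, and 10 of the 50 neurons had a top receptor at 1% or more. Olfr107, the highest in library 1, had 159 UMIs (2.03%), with 1 UMI of Olfr1388 beside it. Olfr788 had 148 UMIs and Olfr215 had 109, each with 1 UMI of another receptor, while Olfr826 with 124 and Olfr728 with 114 were alone. Across the 12 highest members the top barcode was a neuron in every case, 11 of them in library 2.

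Almost every neuron had a receptor of its own. The 50 neurons had 49 different top receptors, and the only repeat was Olfr533, with 171 and 164 UMIs in 2 neurons of library 2. No top receptor occurred in both libraries (7 in library 1, 42 in library 2, of 1135 receptor rows). Sets this small against 1135 rows would seldom overlap. Neither the lack of overlap nor the rarity of repeats is therefore a result about these receptors. Of the 48 members with 10 or more UMIs, all with a neuron as top barcode, 18 had every UMI of the data in 1 barcode and 38 had at least 95% there. Their median was 98.9%, and the lowest was 50.7% for Olfr533 with its 2 neurons. Outside its neuron, Olfr981 had 3 UMIs in 1 unassigned barcode and 3 more spread singly over others, and Olfr1264, at 106 in its neuron, had 2 in 1 microglia-like barcode.

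**Figure D2:**
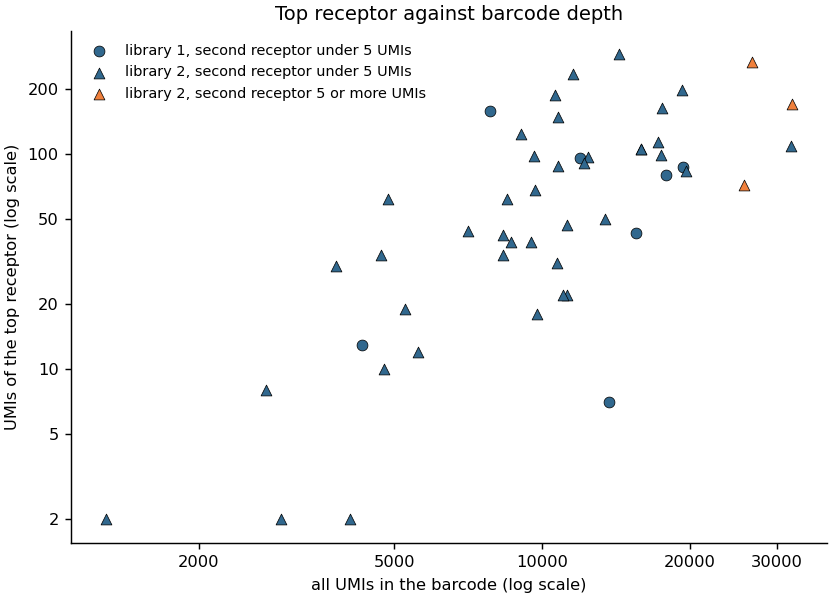
UMIs of the top receptor (y axis, log scale) against all UMIs of the barcode (x axis, log scale) for the 50 neurons; circles are library 1, triangles library 2, and orange marks the 3 neurons whose next receptor has 5 or more UMIs. Those 3 are among the 4 neurons above 25000 UMIs, and the low counts of 2 sit at 1292 to 4061 UMIs.

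Receptor counts followed depth, but the receptor's share of the barcode did so less. Across the 50 neurons Spearman's rho was 0.66 between all UMIs and top receptor UMIs, and 0.18 between all UMIs and the top receptor's share of them. This is a description over barcodes that share libraries, and depth enters both quantities. The neurons with a top receptor of 2 to 9 UMIs had a median of 2932 UMIs and 42.2% mitochondrial UMIs, those with 10 to 49 had 8323 and 6.75%, and those with 50 or more had 13862.5 and 5.06%. The barcodes of Olfr209, Olfr195 and Olfr653, each at 2 UMIs, were shallow and had 42.2% to 65.3% mitochondrial UMIs. That of Olfr972 (8 UMIs) was also shallow, at 2735 UMIs, but had 10.4%. That of Olfr1306 (7 UMIs at a depth of 13704) had 2.32%. The part of RNA quality in these low counts was not tested. At such counts a lone UMI of another receptor lowers the share strongly. Of the 8 neurons under the 90% limit, 4 had a top receptor of 8 UMIs or fewer (Olfr972, Olfr1306, Olfr209 and Olfr195). These receptors of low count were named after their values were seen. The Olfr209 barcode had 3 of the 10 neuron markers but 4 of the 7 ensheathing markers, with 32 UMIs of the latter. The Olfr195 barcode had 3 neuron and 2 ensheathing markers, with 12 UMIs of the latter. Neurons were classed first, so the neuron class of these barcodes is uncertain.

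In 3 neurons, all of library 2, a further receptor was high. The first held Olfr981 at 268 UMIs with Olfr1018 at 101 and Olfr983 at 90. The next held Olfr533 at 171 with Olfr1196 at 156, and the last Olfr339 at 72 with Olfr1012 at 34. The lesser receptor thus reached 37.7%, 91.2% and 47.2% of the top one, and the stretches printed above show that the 7 receptors differ from each other also around the family motif. These pairs were only 57.1% to 58.7% identical in coding sequence, and the longest run of bases shared by their transcripts was 30, between Olfr981 and Olfr983. Olfr981 and Olfr983 belong to the same cluster with 1 receptor gene between them, on opposite strands.

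These 3 neurons ranked 1, 3 and 4 of the 50 in depth, at 32292, 26685 and 25803 UMIs, where the other 47 had a median of 10699. The barcode with rank 2, at 32098 UMIs, had Olfr215 at 109 and 1 UMI of Olfr365. It also held 1257 UMIs of 7 markers of sustentacular cells, the supporting cells of the epithelium, where no other neuron had more than 5. Whether such barcodes held more than 1 cell was not tested. Leaving out the 4 neurons above 25000 UMIs, 91.3% of the 46 others held exactly 1 receptor and 89.1% had a top receptor at 90% or more.

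The other cases of a further receptor at 2 or more UMIs were small. Olfr806 at 22 stood beside Olfr206 at 3, and Olfr463 at 47 beside Olfr309 at 2. Olfr365 was at 2 beside Olfr533 (164) and beside Olfr263 (87), and also at 2 in the neuron with Olfr533 and Olfr1196. It is the member that came back most often at low level in neurons: 11 of 50 had 1 or 2 UMIs of it (22.0%, 11.5% to 35.96%), 10 in library 2 and 1 in library 1, and it was never a neuron's top receptor. In microglia-like barcodes 5 of 4883 had it (0.102%), and in ensheathing-like barcodes 0 of 226, which allows a share of up to 1.33%. Thinned to 1000 UMIs per barcode, 2 of 64 sensory-neuron-like barcodes kept an Olfr365 UMI and 0 of 4874 microglia-like ones did. Its share in neurons was above the level in microglia-like barcodes, yet it came to only 23.4 CPM (UMIs of a gene per 1000000 UMIs) in the neurons. The closest relative of Olfr365, Olfr364-ps1, is 95.4% identical.

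Of the genes independent of the choice of members, Omp had UMIs in 49 of the 50 neurons (98.0%, 89.4% to 99.9%) and Gng13 in all 50. Omp ran from 0 to 205 UMIs with a median of 60.5, and Gng13 from 2 to 165 with a median of 39. Gap43 was found in 10 (20%, 10.0% to 33.7%) and Gng8 in 5 (10.0%, 3.33% to 21.8%). In 40 neurons both mature genes were present with neither immature one. Most markers of the class are genes of mature neurons, so the class may favour mature neurons. Microglia-like barcodes had Omp in 0.860%, Gng13 in 1.52%, Gap43 in 0.102% and Gng8 in 0.0819%. Thinned to 1000 UMIs, the neurons had Omp in 46, Gng13 in 45, Gap43 in 5 and Gng8 in 1, and the microglia-like barcodes had Omp in 0.144% and Gng13 in 0.431%, with Gap43 and Gng8 in 0 of 4874, which allows up to 0.0616%.

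**Figure D3:**
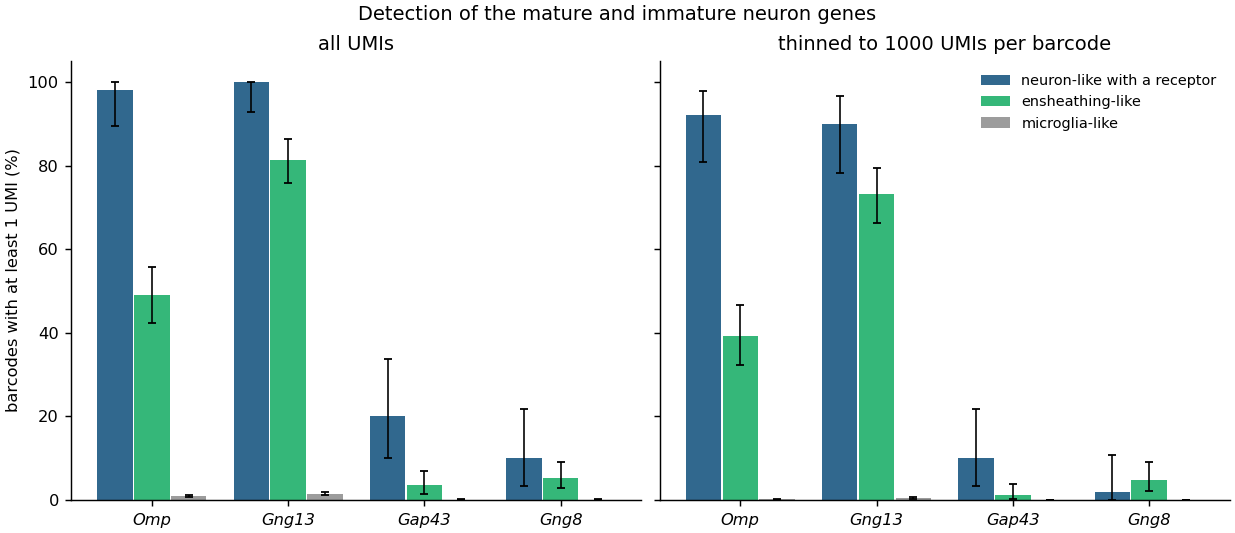
Share of barcodes with at least 1 UMI (y axis, percent, bars with exact 95% binomial intervals) of Omp, Gng13, Gap43 and Gng8 in 50 sensory-neuron-like receptor barcodes, 226 ensheathing-like and 4883 microglia-like barcodes, with all UMIs at left and after thinning to 1000 UMIs at right. Omp and Gng13 are near 100% in the neurons, Gap43 and Gng8 at 20% and 10.0%, and all 4 are close to 0 in microglia-like barcodes.

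Detection of the mature genes was near its ceiling, so it could not separate neurons by the number of receptors. Omp was found in 42 of the 43 neurons with a single receptor and in all 7 with more, and Gng13 in all of both. Their levels were higher in the 7, with median Omp at 85 UMIs against 58 and Gng13 at 72 against 38. Median depth was also higher, at 19375 UMIs against 9745. Gap43 was in 8 of 43 (18.6%, 8.39% to 33.4%) and in 2 of 7 (28.6%, 3.67% to 71.0%), Gng8 in 3 and in 2, with intervals that overlap widely. By level of the top receptor, median Omp was 6 UMIs where the receptor had 2 to 9. It was 48 where the receptor had 10 to 49 and 69 where it had 50 or more. Median depth rose in the same order, but not in proportion, and Omp levels adjusted for depth were not compared. Gap43 was in 2 of 5, 4 of 17 and 4 of 28 of these neurons. Spearman's rho over the 50 neurons was 0.86 between Omp and Gng13 and 0.59 between Omp and the top receptor, again with depth in both.

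All 5 neurons with Gng8 also had Gap43, and they were the only ones with more than 2 UMIs of Gap43. Their receptors were named after their values were seen. The Olfr295 neuron, with the highest receptor count of all, had 9 UMIs of Omp, 15 of Gng13, 37 of Gap43 and 8 of Gng8. The Olfr1294 neuron (83 UMIs) had 16 of Omp, 38 of Gng13, 66 of Gap43 and 7 of Gng8. Immature genes thus stood beside a full receptor signal in both of these neurons, with few UMIs of Omp. The neuron with Olfr339 and Olfr1012 had both kinds of gene at high level, 73 of Omp with 64 of Gap43 and 8 of Gng8. The Olfr806 neuron had 58 of Omp, 7 of Gap43 and 1 of Gng8. The Olfr1306 neuron of library 1 was the only one with no Omp. It had 20 UMIs of Gng13, 13 of Gap43 and 4 of Gng8, and beside 7 of Olfr1306 it held 1 UMI each of Olfr460, Olfr624 and Olfr134.

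**Figure D4:**
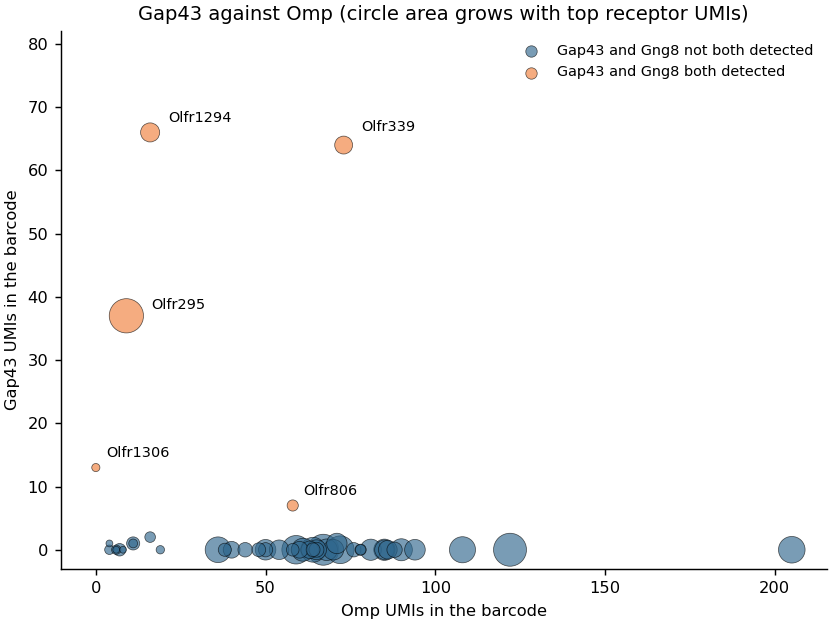
Gap43 UMIs (y axis) against Omp UMIs (x axis) in the 50 neurons, with circle area growing with the UMIs of the top receptor; orange marks the 5 neurons with both Gap43 and Gng8, named by their top receptor. The other 45 neurons lie at 0 to 2 UMIs of Gap43 across the whole range of Omp.

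Among these 5 neurons 3 had exactly 1 receptor (60%, 14.7% to 94.7%) and the median top share was 84.6%, against 40 of 45 (88.9%, 75.9% to 96.3%) and 99.6% in the others. A top receptor at 90% or more stood in 2 of 5 (40%, 5.27% to 85.3%) and in 40 of 45 (88.9%, 75.9% to 96.3%). These intervals overlap, and the difference was not tested. The median top receptor was 72 UMIs in the 5 and 62 in the 45, at median depths of 14323 and 10634. Of the immature list, 12 genes had a higher median in the 5, Gap43 and Gng8 by choice among them, and 0 a lower one. Of those, named after their values were seen, Stmn1, a microtubule regulator, had a median of 58 UMIs against 0, Stmn2 42 against 3 and Dpysl3, another growth cone gene, 25 against 0. The 16 mature genes were mixed, with 11 medians lower in the 5, 4 higher and 1 equal. Omp had a median of 16 against 63 and Stoml3, a membrane protein of mature cilia, 55 against 101, while Gng13 had 36 against 41. The 4 higher ones, Gfy (28 against 27), Ric8b (7 against 6), Rtp1 (6 against 4) and Rtp2 (5 against 4), differed little. The mature genes other than Omp and Gng13 were likewise chosen after their values were seen.

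The remaining genes of the odorant pathway were read from lists. All 16 genes of the mature list were found in the 50 neurons, 15 of them in at least 50% of the neurons. Gnal, Adcy3, Cnga2, Cnga4, Ano2, Stoml3, Rtp1, Gfy and Umodl1 of this list were, with Lhx2, the 10 markers that set the neuron class. Their detection, here and in the lists below, was therefore partly fixed in advance. Gng13 (50), Omp (49), Gnal (49), which encodes the olfactory G protein alpha subunit, and Stoml3 (49) led. Of the immature list 14 genes were found. The transcription factors Ebf2 (47), Lhx2 (46) and Ebf1 (45) led, and Neurod1 and Neurog1, factors of neuronal progenitors, were at 0 (0 of 50, which allows up to 6%). All 13 genes linked to receptor choice and export were found, led by Atf5 in 50, which the unfolded protein response raises when a receptor is first made, Rtp1 in 47, which carries receptors to the membrane, and Lhx2 in 46. Of the 10 axon targeting genes, whose level is known to go with the receptor chosen, Epha5 was in 42 neurons, Kirrel2 in 38 and Efna5 in 27. Kirrel2 alone was in 28, Kirrel3 alone in 4, both in 10 and neither in 8.

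Other chemoreceptors were nearly absent. Of 339 symbols for trace amine receptors, vomeronasal receptors and 3 related genes, 4 were found in the 50 neurons with 1 UMI each (Trpm5, Vmn1r4, Vmn1r58 and Vmn2r100). Microglia-like barcodes had these at 0.0410% to 0.143%.

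The olfactory epithelium is divided into dorsal and ventral zones, each with its own set of receptors. Nqo1 and Acsm4 are dorsal genes and Ncam2 a ventral one. Nqo1 was found in 6 neurons and Ncam2 in 28. No neuron had both, and 16 had neither. Acsm4 and Ncam2 met in 2 neurons, those of Olfr295 (1 and 2 UMIs) and Olfr215 (1 and 1). The Nqo1 neurons expressed Olfr1328 (32 UMIs of Nqo1), Olfr569 (14), Olfr826 (11), Olfr1030 (8), Olfr639 (1) and Olfr653 (1), all named after their values were seen. Acsm4 was present in all 6 of them and in 5 of the other 44. Olfr569, Olfr639 and Olfr653 lie in the receptor cluster around the beta-globin genes, home of the fish-like class I receptors, which are known to be expressed mostly dorsally. They were the only members there, of 156 receptor genes in that cluster, where 78 of all 1135 receptor rows were members. All 3 stood in neurons with Nqo1. For Olfr639 and Olfr653 this rests on 1 UMI of Nqo1 each. The counts of the 3 receptors were 39, 34 and 2 UMIs. The Olfr653 barcode had 5 of the 10 neuron markers and 65.3% mitochondrial UMIs, so its class is uncertain.

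Outside the neurons receptor counts were low. In the 64 microglia-like receptor barcodes the top receptor had 2 to 4 UMIs and none had more than 1 receptor at 2 or more. Olfr920 was the receptor in 53 of them. It had UMIs in 389 of 4883 microglia-like barcodes (7.97%, 7.22% to 8.76%), 6.16% in library 1 at a median depth of 7391.5 and 11.5% in library 2 at 9992. No receptor-bearing neuron had it (0 of 50, which allows up to 6%), and 1 of 70 sensory-neuron-like barcodes did. It came to 10.5 CPM in microglia-like, 1.86 CPM in ensheathing-like and 4.38 CPM in unassigned barcodes. The ensheathing-like value rests on 1 UMI in 1 of 226 barcodes. Thinned to 1000 UMIs, Olfr920 was in 48 of 4874 microglia-like barcodes (0.985%) and in 1 of 186 ensheathing-like ones (0.538%). Its highest count in a barcode was only 4 UMIs, but over all barcodes its 468 UMIs were the highest total of any member, ahead of Olfr533 with 337.

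**Figure D5:**
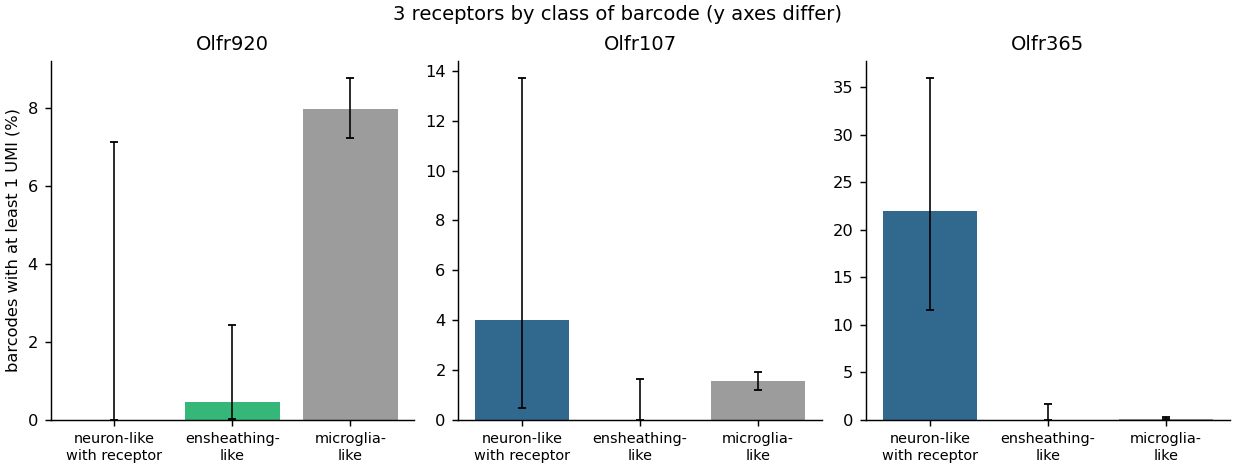
Share of barcodes with at least 1 UMI (y axes, percent, which differ between panels) of Olfr920, Olfr107 and Olfr365 in 50 sensory-neuron-like receptor barcodes, 226 ensheathing-like and 4883 microglia-like barcodes, with exact 95% binomial intervals. Olfr920 is at 7.97% in microglia-like barcodes and 0 in the neurons, and Olfr365 at 22.0% in the neurons and 0.102% in microglia-like barcodes.

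Olfr107 gave a different pattern. Beside the 159 UMIs of its neuron it had exactly 1 UMI in each of 75 microglia-like barcodes (1.54%). Of these, 37 were among the 3246 microglia-like barcodes of library 1 (1.14%), which holds the neuron. The other 38 were among the 1637 of library 2 (2.32%), which holds no barcode with more than 1. The levels were 1.48 CPM in library 1 and 2.12 CPM in library 2, where microglia-like barcodes were deeper. Olfr639, at 34 in a neuron of library 2, had 1 UMI in 24 microglia-like barcodes, 18 in library 1 (0.555%) and 6 in library 2 (0.367%). Olfr110, at 91 in a neuron of library 2, had 1 in 19, with 14 in library 1 (0.431%) and 5 in library 2 (0.305%). For Olfr639 and Olfr110, both named after their values were seen, the intervals of these shares overlap between the libraries. Single UMIs of these receptors thus also occurred in the library without their neuron. Olfr1369-ps1, the near copy of Olfr263, had 9 UMIs in 5 microglia-like barcodes, up to 4 in 1, and none in a neuron. Olfr639 overlaps Olfr643 on the same strand in the annotation, and its counts cannot be told apart from that gene's beyond what the authors' counting did.

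Ensheathing-like barcodes held receptor RNA as a scatter of many receptors. Of 226, 87 (38.5%, 32.1% to 45.2%) had at least 1 receptor UMI, at a median depth of only 1596 UMIs, and 119 UMIs fell on 90 different receptors. Just 5 reached 2 UMIs of any one, with Olfr1308, Olfr32, Olfr3, Olfr394 and Olfr1201 at 2 each. Gng13 was in 81.4% and Omp in 49.1% of them, and Gng13 UMIs outnumbered those of Omp 5.08 to 1, whereas the ratio was 0.809 in the neurons. Of the neurons, Gng13 was above Omp in 15 and below it in 34. Among the 10 unassigned receptor barcodes Olfr1427 was highest with 9 UMIs beside 2 of Olfr2, in a barcode with 33 UMIs of respiratory epithelium markers, followed by Olfr96 with 5, Olfr76 with 3 and Olfr981 with 3.

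Sensory-neuron-like barcodes without a receptor numbered 20 of 70, 13 of 20 in library 1 and 7 of 50 in library 2. A receptor was thus found in 35% (15.4% to 59.2%) of those of library 1, at a median depth of 6069 UMIs, and in 86.0% (73.3% to 94.2%) of library 2, at 9707.5. Each library is 1 sample, so this difference is between 2 libraries only. In library 1, 3 of the 13 without a receptor had 5 or more of the 7 microglia markers, and without them, a set chosen after seeing the data, the share was 41.2% (18.4% to 67.1%). The deepest of the 13, at 16840 UMIs, held 446 UMIs of sustentacular markers with 1 UMI of Omp and 0 of Gng13. The markers of these barcodes thus go partly against the neuron class. Of the 20, 12 were under 3000 UMIs, 9 of them in library 1, and 18 had only 3 or 4 of the 10 neuron markers. At the depths of the 20 a count of 0 allows 178 to 4717 CPM, a limit that applies to the 15 with no receptor UMI. The median top receptor of the 50 neurons stood at 0.518% of all UMIs, above each of these limits. The lowest top receptor was at 492 CPM, however, below the limits of the shallower barcodes. The part of depth in the missing receptors was not tested. The 20 also differed in other genes: thinned to 1000 UMIs, Omp was in 6 of 14 (42.9%, 17.7% to 71.1%), with 6 shallower ones left out, against 46 of 50. A barcode of library 1 stood apart with 10341 UMIs, all 10 neuron markers, 92 UMIs of Omp and 63 of Gng13, and no UMI of any of the 1135 receptor rows, which allows up to 290.1 CPM for each. Top receptors of the other neurons with all 10 markers ran from 0.185% of their UMIs upward, which is above that limit. The barcode also had 1 UMI of the other chemoreceptor families listed above. Another, of library 2, had 11747 UMIs with 4 of Gap43, 6 of Gng8, 10 of Gng13 and none of Omp. It had 1 UMI each of Olfr1104, Olfr791, Olfr372 and Olfr920, and 1 UMI of the other chemoreceptor families.

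Promoter windows from RefSeq (GRCm38.p6) were found for 59 of the 78 members, each cut to the 250 bases before the annotated start. In 46 the annotated start was the coding start itself, so these are not transcription starts, and 10 lay over 50 bases before it. The 3 windows printed are from those 10: Olfr1030, of a Nqo1 neuron, Olfr983, which shared a neuron with Olfr981, and Olfr920. Capitals mark matches to TAATTA, a core site of homeodomain factors such as Lhx2, and to CCCNNGGG, a core of Ebf sites. Both read the same on either strand. Positions are chr2:85979062-85979311 on the plus strand for Olfr1030, chr9:40093559-40093808 on the minus strand for Olfr983 and chr9:38752546-38752795 on the plus strand for Olfr920.
Olfr1030: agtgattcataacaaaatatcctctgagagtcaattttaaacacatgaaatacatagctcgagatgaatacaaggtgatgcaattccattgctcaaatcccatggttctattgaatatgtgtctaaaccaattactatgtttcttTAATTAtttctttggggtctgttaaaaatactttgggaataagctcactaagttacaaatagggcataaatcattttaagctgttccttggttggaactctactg
Olfr983: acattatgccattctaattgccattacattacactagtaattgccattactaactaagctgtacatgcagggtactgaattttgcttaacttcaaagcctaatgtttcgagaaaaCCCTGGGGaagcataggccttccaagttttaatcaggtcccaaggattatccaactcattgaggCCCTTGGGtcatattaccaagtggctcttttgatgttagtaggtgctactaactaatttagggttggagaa
Olfr920: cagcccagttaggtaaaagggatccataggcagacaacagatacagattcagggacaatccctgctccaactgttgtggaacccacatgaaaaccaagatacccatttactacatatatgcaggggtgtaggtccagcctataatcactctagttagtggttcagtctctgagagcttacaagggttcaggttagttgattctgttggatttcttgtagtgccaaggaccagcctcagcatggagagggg

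TAATTA was in 8 of the 59 member windows (13.6%), in 18% of all 948 receptor windows and in 4.84% of all 32851 windows of this length. CCCNNGGG was in 1 of 59 (1.69%), in 2.74% of receptor windows and in 11.8% of all. The median GC content was 34% in receptor windows and 52.4% in all, and the A and T letters of TAATTA are more frequent where GC is low. A match is a description of letters and not a binding site.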

How the data were processed

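Single cells of 2 pooled samples (Healthy and EAE) were sequenced and joined in 1 matrix. The deposited values are raw UMI counts per gene and barcode, written by Cell Ranger software version 3.1.0 in matrix format version 2, per the file headers. Cell Ranger, bcl2fastq and UMI-tools are named without versions in the submitters' processing notes. The genome build was not given in the sources used here, nor was the annotation. Counts of 5996 of 6272 barcodes were used as deposited, with Python 3.11.15, NumPy 2.4.6, SciPy 1.17.1, pandas 2.3.3, Biopython 1.88 and matplotlib 3.10.9. All 78 gene IDs matched GENCODE M21, which gave coding sequences and clusters. Barcodes were classed by marker lists, with neurons taken first when at least 3 of their 10 markers had a UMI. Thinning drew 1000 UMIs per barcode and left out shallower ones. No doublet caller was run, so barcodes of more than 1 cell may remain. Receptor counting and thinning were tested on simulated data. The simulated receptors stood far above an even background, so counts near the limit of 2 UMIs were not covered.

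Members, lists and markers were chosen with earlier results of these data known. Genes named are the 4 neuron genes, the 12 members with the highest count, members at 2 UMIs in several barcodes or outside neurons, pairs sharing a barcode and the 3 leading or undetected genes of each list; others are said to be chosen after seeing values. The alternatives varied the UMI limit, the barcode filter, the class of barcode, the library and the depth. One gene of the immature list is not reported here.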

Additional observations from a re-analysis of the deposited data

How the results depend on the processing

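Over 162 recomputed values (9 results under 18 settings, 5 of which were chosen after seeing the data), 94 stayed within the counting interval or within 1.5 times the count and 68 did not. Of all 129 receptor barcodes 93.8% held exactly 1 receptor, 74.4% had a top receptor at 90% or more, and 45.7%, 50.4%, 9.30% and 5.43% had Omp, Gng13, Gap43 and Gng8. The number of members moved from 78 to 358 with 1 UMI as a receptor, 20 in library 1 alone, 48 and 41 thinned to 1000 and 500 UMIs, 51 in neurons with at least 6 of 10 markers and 49 in neurons below 25000 UMIs. Receptor barcodes moved from 129 to 1360 at 1 UMI, 60 at 3 UMIs, 49 at 5 UMIs, 65 without microglia-like barcodes, 50 in neurons, 43 in library 1, 47 and 40 after thinning, 74 without Olfr920, and 45 and 46 in the 2 stricter sets of neurons. The share with exactly 1 receptor moved to 83.4% at 1 UMI, 87.7% without microglia-like barcodes, 86.0% in neurons, 97.9% thinned to 1000 and 84.4% in neurons with 6 markers.

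The share with a dominant receptor moved to 84.7%, 83.3% and 83.7% at 1, 3 and 5 UMIs, 84.0% in neurons, 87.2% and 95% thinned, and 88.9% and 89.1% in the stricter neurons. Omp moved to 13.2%, 83.3% and 98.0% at 1, 3 and 5 UMIs, 89.2% without microglia-like barcodes, 98.0% in neurons, 20.9% and 58.1% in library 1 and library 2, 87.2% and 70.0% thinned, 78.4% without Olfr920, and 100% and 97.8% in the stricter neurons. Gng13 moved in the same settings to 17.6%, 85.0%, 100%, 96.9%, 100%, 25.6%, 62.8%, 89.4%, 82.5%, 86.5%, 100% and 100%. Gap43 moved to 1.69%, 16.7% and 20.4% at 1, 3 and 5 UMIs, 18.5% without microglia-like barcodes, 20% in neurons, 4.65% in library 1, 16.2% without Olfr920, and 17.8% and 19.6% in the stricter neurons. Gng8 moved to 1.32% at 1 UMI, 12.2% at 5 UMIs and 2.13% thinned to 1000. The 56 members with a neuron became 8 in library 1 and 37 thinned to 500.

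At least 500 genes, at most 20% mitochondrial UMIs, no barcode filter, no -ps symbols, joining receptors at least 90% identical in coding sequence and leaving out neurons above 25000 UMIs moved none of the 9 results. The planned joining by protein identity was not run, and coding sequence took its place. Depth limits what can be said of single UMIs, and with 1 pool per group nothing can be said of the groups.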

Other observations

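A few members were spread thinly over microglia-like barcodes and had no neuron, a pattern seen at much higher frequency for Olfr920. Olfr1444 had a UMI in 26 microglia-like barcodes, Olfr750 in 21, Olfr1033 in 15, Olfr259 in 13 and Olfr267 in 9, and each reached 2 UMIs in a single one of them. None of these 5 had a UMI in any sensory-neuron-like barcode. They were named after their values were seen, and how such UMIs arose was not tested. Olfr1033 and Olfr259 each have a receptor at least 90% identical in coding sequence, so their counts are uncertain.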
